A study of Mus musculus with 6 samples.

Results

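The 37 genes described here mark macrophages, monocytes and dendritic cells, and they were taken by symbol from a table of FPKM values (reads scaled by the length of the gene and the depth of the library) that holds 23550 gene symbols. All 37 were in the table. The table covers 6 RNA-seq libraries from mouse stomach, 3 from mice that received saline by gavage (replicates 1, 2 and 4) and 3 from mice that received Riclin, a soluble dietary fibre, by gavage at 20 mg/kg (replicates 2, 3 and 4), both for 14 days. The saline label carries the same dose figure. The comparison asks whether the fibre alters the defence barrier of the gastric mucosa. The sources used here do not give strain, age, the part of the stomach sampled, or whether these mice also met the ethanol used elsewhere in the study. Nor do they state that each library came from a separate animal, so that p-values measure the spread between libraries only.

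Macrophages are tissue-resident or monocyte-derived phagocytes that take up dying cells, microbes and antibody-coated particles. Their survival depends on the receptor for colony stimulating factor 1, and their gene programme on the transcription factor PU.1, the product of Spi1. Dendritic cells depend instead on the receptor Flt3 and carry antigen to T cells, with one conventional type marked by Xcr1, Clec9a and Batf3 and the plasmacytoid type by Siglech. In the stomach such cells lie in the lamina propria and muscle layers, among an epithelium that is far more abundant.

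PU.1 binds purine-rich sites with a GGAA centre, and promoter sequence is therefore shown for 5 members. RefSeq promoters on build GRCm38.p6, 300 bases long from 250 before to 50 after each start, were found for 29 of the 37 members (33 promoters). The letters GAGGAA, on either strand, occurred in 19 of these 33 promoters (57.6%) and in 9289 of all 32851 promoters (28.3%), and 17 of the 29 genes had at least 1 such promoter. A match describes letters only, not a bound site. The 250 bases before the start are given 5′ to 3′ on the gene's own strand for Fcgr1, which had the smallest p of the members, for C1qb and C1qc, neighbours on chromosome 4 that encode chains of one protein, and for Itgam and Cd68, common surface and lysosomal markers of macrophages. Capitals mark GAGGAA or its complement TTCCTC.
Fcgr1, chr3:96293970-96294219, minus strand: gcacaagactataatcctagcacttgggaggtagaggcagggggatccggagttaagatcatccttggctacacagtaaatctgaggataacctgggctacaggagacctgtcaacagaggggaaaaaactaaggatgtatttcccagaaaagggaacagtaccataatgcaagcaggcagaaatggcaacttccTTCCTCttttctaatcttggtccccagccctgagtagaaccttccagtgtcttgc
C1qb, chr4:136886201-136886450, minus strand: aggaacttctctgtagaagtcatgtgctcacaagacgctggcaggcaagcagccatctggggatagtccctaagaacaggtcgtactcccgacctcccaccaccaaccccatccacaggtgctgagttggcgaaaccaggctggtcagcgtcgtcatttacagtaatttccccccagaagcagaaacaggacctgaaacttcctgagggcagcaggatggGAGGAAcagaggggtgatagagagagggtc
C1qc, chr4:136892915-136893164, minus strand: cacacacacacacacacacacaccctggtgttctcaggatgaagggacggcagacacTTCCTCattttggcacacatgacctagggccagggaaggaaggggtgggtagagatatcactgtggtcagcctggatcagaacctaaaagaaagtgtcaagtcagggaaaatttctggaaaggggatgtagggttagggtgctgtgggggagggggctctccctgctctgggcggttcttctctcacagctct
Itgam, chr7:128062390-128062639, plus strand: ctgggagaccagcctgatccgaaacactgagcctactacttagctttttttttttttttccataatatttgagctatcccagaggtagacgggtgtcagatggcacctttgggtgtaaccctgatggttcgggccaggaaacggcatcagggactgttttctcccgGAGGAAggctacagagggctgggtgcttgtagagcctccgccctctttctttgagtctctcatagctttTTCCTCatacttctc
Cd68, chr11:69666171-69666420, minus strand: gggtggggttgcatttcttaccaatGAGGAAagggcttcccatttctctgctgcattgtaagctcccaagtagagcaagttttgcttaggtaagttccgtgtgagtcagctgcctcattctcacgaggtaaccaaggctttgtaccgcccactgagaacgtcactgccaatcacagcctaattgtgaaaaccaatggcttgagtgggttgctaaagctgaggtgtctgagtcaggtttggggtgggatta
Fcgr1 is known as an interferon-responsive gene, and its promoter also held TTCNNNGAA, the spacing that STAT dimers recognise and that reads alike on both strands. The site lies at chr3:96294060-96294088 with 10 bases on each side, capitals marking the match.
Fcgr1 site: aaggatgtatTTCCCAGAAaagggaacag
The same spacing was present in 3 of the 33 member promoters (9.09%) and in 8.30% of all promoters. It was searched for after the Fcgr1 values had been seen.

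No member differed between Riclin and saline past the adjusted threshold. One library, Riclin replicate 4, stood apart by high values in most members, and values without it are given where it was the highest library of a main result. Of the 37 members, 30 reached 1 FPKM in 3 or more of the 6 libraries and were tested by limma on log2(FPKM + 1), and 0 of the 30 had a Benjamini-Hochberg adjusted p under 0.05 over all 11738 genes tested (background 0%, the smallest member value being 0.765). Fcgr1, the high-affinity IgG receptor, and Adgre1, which encodes the macrophage surface protein F4/80, had an unadjusted p under 0.05 with a higher level in Riclin. They make 2 of 30 members (6.67%), where 4.07% of all genes passed the same rule. No member was lower at an unadjusted p under 0.05, against 1.83% of all genes. The same pair were the only tested members whose groups did not overlap, with Riclin above saline in 6.67% of members and 8.14% of all genes, and 0 members against 3.02% of all genes had Riclin below. These shares lie near the background.

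Log2 fold changes of the 30 tested members ran from -0.29 for Timd4 to 0.49 for Fcgr1, with a median of 0.045 beside 0.040 over all genes tested. Of the 30, 18 lay above 0 and 12 below, a share of 60.0% against 61.3% of all genes. With pancreatic acinar genes removed and the libraries rescaled the split was 14 to 16, and 43.8% of all genes lay above 0. The 95% intervals from limma, not adjusted for the number of genes, stayed within a 2-fold change in either direction for 30 of 30 members and within 1.5-fold for 16. With a pseudocount of 0.1 in place of 1, which shrinks low genes less, 23 of 30 stayed within 2-fold. In bulk tissue, fewer cells of a type and less RNA per cell cannot be told apart.

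**Figure D1:**
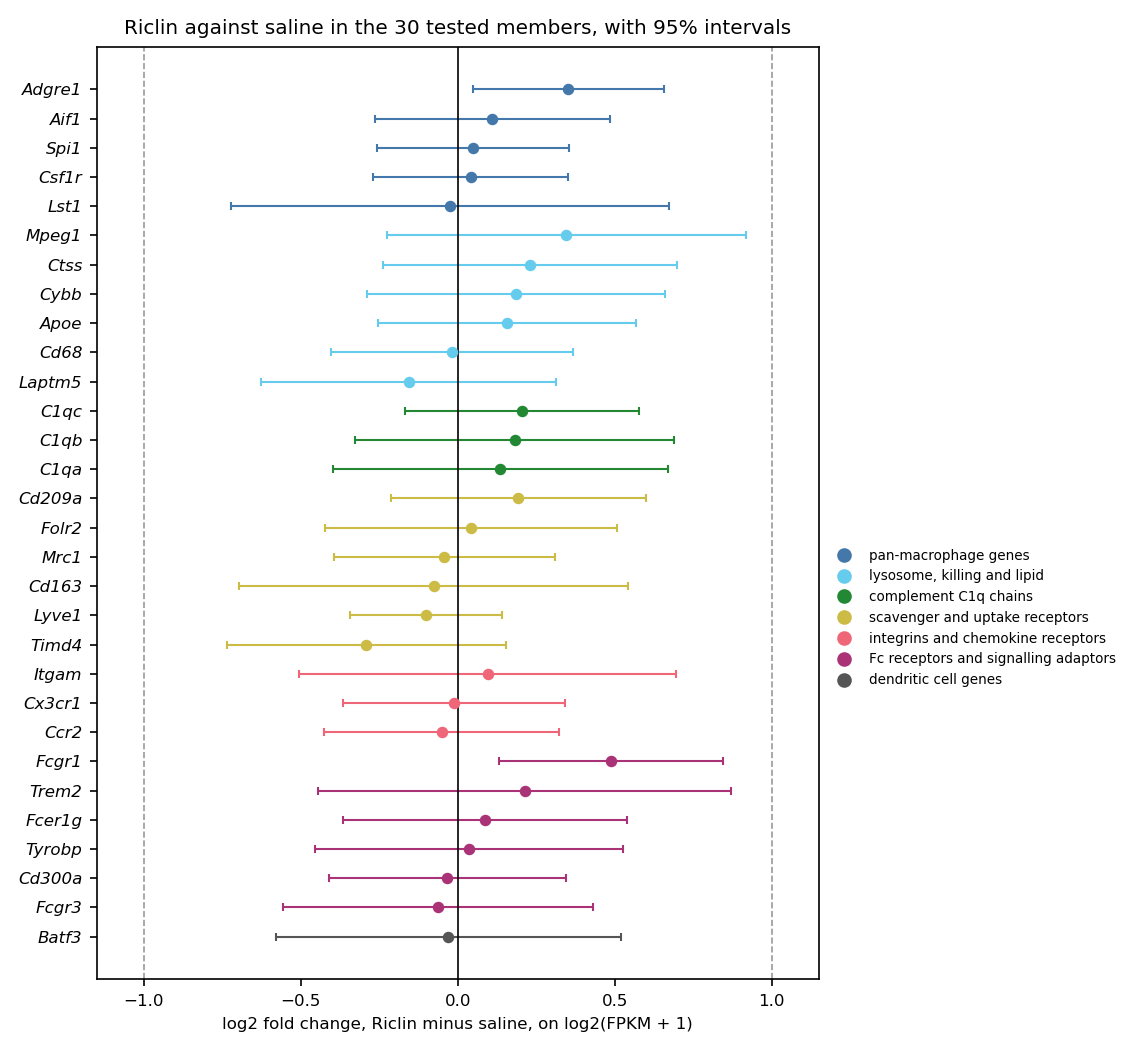
Log2 fold change of Riclin against saline for each of the 30 tested members, on the log2(FPKM + 1) scale, with 95% intervals from limma (3 libraries a group), coloured by role; dashed lines mark a 2-fold change. The intervals of Fcgr1 and Adgre1 lie above 0, all others cross 0, and none reaches a dashed line.

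In the values that follow, the libraries of each group are listed by replicate number, 1, 2, 4 for saline and 2, 3, 4 for Riclin. Fcgr1 measured 1.62, 1.49 and 1.91 FPKM in saline, and 2.01, 3.07 and 3.29 FPKM in Riclin. Every Riclin library lay above every saline library, though Riclin replicate 2 lay only just above saline replicate 4. The means were 1.67 ± 0.217 and 2.79 ± 0.683 FPKM (SD, n = 3 each), 1.67-fold higher in Riclin, with a log2 fold change of 0.49 (SE 0.153, limma unadjusted p = 0.0135 and adjusted p = 0.765). These values rest on 139 to 324 reads a library. Without Riclin replicate 4 the log2 fold change of Fcgr1 was 0.39 (limma unadjusted p = 0.0480 and adjusted p = 0.964). Fcgr1 lies on chromosome 3 from 96282909 to 96293969 (GRCm38, minus strand, protein-coding). Interferon-stimulated genes, a list chosen with earlier results known, summed to between 658 and 744 FPKM in saline and between 1009 and 1818 in Riclin. Of 34 such genes tested 32 (94.1%) had a higher value in Riclin, against 61.3% of all genes tested. Of the 34, 33 were highest in Riclin replicate 3, the highest library for 35.6% of all genes tested. None of the 34 was at 0 in all libraries, and their part in the Fcgr1 value was not tested. Within Riclin, Fcgr1 measured 3.07 FPKM in replicate 3 and 3.29 FPKM in replicate 4, and its ratio to Csf1r was 0.227 and 0.176.

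Adgre1 measured 5.54, 6.11 and 6.44 FPKM in saline, and 6.75, 7.80 and 9.53 FPKM in Riclin. The groups did not overlap, and here too Riclin replicate 4 was highest. The mean was 1.33-fold higher in Riclin (6.03 ± 0.456 against 8.03 ± 1.40 FPKM, SD, n = 3 each), with a log2 fold change of 0.35 (SE 0.131, limma unadjusted p = 0.0286 and adjusted p = 0.791). Without Riclin replicate 4 the log2 fold change was 0.24 and the unadjusted p was 0.101. Adgre1 lies on chromosome 17 from 57358691 to 57483527 (GRCm38, plus strand, protein-coding). Eosinophils also carry F4/80 in mice. The 8 eosinophil markers summed to 2.69 to 4.09 FPKM in saline and to 1.54 to 17.9 FPKM in Riclin, and Riclin replicate 4 was highest in 5 of the 8. The granule peroxidase Epx had 1 read in saline replicate 1 and none in any other library of either group. The part of eosinophils in the Adgre1 value was not tested.

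Set against Csf1r in the same library, both genes kept this order. The ratio of Adgre1 to Csf1r was 0.355, 0.437 and 0.420 in saline and 0.468, 0.576 and 0.510 in Riclin. The ratio of Fcgr1 to Csf1r was 0.104, 0.107 and 0.125 in saline and 0.139, 0.227 and 0.176 in Riclin. Neither ratio overlapped between the groups, and each had an exact two-sided permutation p of 0.1 (n = 3 each), the smallest that this design allows, and 0.35 after Benjamini-Hochberg adjustment over the 7 ratios formed. In both ratios Riclin replicate 3, not replicate 4, was highest. By contrast, the ratio of Spi1 to Csf1r averaged 0.344 ± 0.0375 over the saline libraries and 0.345 ± 0.0109 over the Riclin ones (SD, n = 3 each, exact permutation p = 0.8). These ratios were formed after the values had been seen. Fcgr1 and Adgre1 already lay apart between the groups and Csf1r changed little (log2 fold change 0.042), so their ratios are not separate support. No other ratio had an exact permutation p under 0.5.

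**Figure D2:**
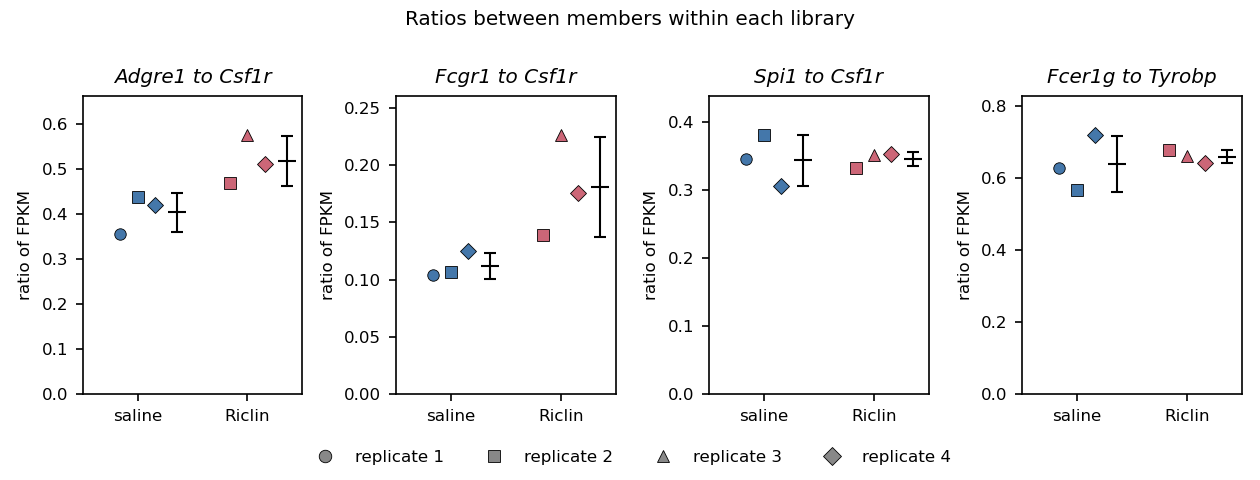
Ratio of FPKM between pairs of members in each library (points, shaped by replicate number), with the mean and SD of each group (bars, n = 3). Adgre1 and Fcgr1 relative to Csf1r were above every saline library in all 3 Riclin libraries, while Spi1 to Csf1r and Fcer1g to Tyrobp overlapped.

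The remaining pan-macrophage genes overlapped between the groups. Csf1r, the receptor for colony stimulating factor 1 and interleukin 34, measured 15.6, 14.0 and 15.3 FPKM in saline and 14.4, 13.5 and 18.7 FPKM in Riclin. Only Riclin replicate 4 lay outside the saline range on the high side. Its log2 fold change was 0.042 with a 95% interval of -0.27 to 0.35 (limma adjusted p = 0.973). Spi1 measured 5.37, 5.31 and 4.68 FPKM in saline and 4.80, 4.75 and 6.58 FPKM in Riclin, again with replicate 4 alone above saline. Aif1, an actin-binding protein of macrophages, had means of 5.24 ± 0.639 and 5.80 ± 1.36 FPKM (SD, n = 3 each). Lst1, a small leukocyte membrane protein, ran from 3.60 FPKM in Riclin replicate 3 to 10.4 FPKM in Riclin replicate 4, so that both extremes fell in one group. Csf1r shares 873 exon bases with Hmgxb3 on the opposite strand, and the reads over this stretch could come from either gene where strand was not used in counting.

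The 3 chains of complement C1q, which macrophages secrete and which binds immune complexes and dying cells, had the highest FPKM of the members after Apoe. C1qa measured 40.0, 53.5 and 53.1 FPKM in saline and 39.8, 51.2 and 74.3 FPKM in Riclin. C1qb measured 32.7, 36.6 and 41.3 FPKM in saline and 29.2, 46.5 and 53.6 FPKM in Riclin. C1qc measured 28.3, 30.6 and 36.9 FPKM in saline and 30.4, 37.3 and 43.5 FPKM in Riclin. All 3 chains were highest in Riclin replicate 4 and their groups overlapped. The log2 fold changes were 0.14 (SE 0.230), 0.18 (SE 0.219) and 0.20 (SE 0.160), and the limma adjusted p values were 0.941, 0.923 and 0.882. Without Riclin replicate 4 that of C1qa was -0.10, that of C1qb 0.0053 and that of C1qc 0.084. The chains stayed in similar proportion, with a C1qa to C1qb ratio between 1.10 and 1.46 in the 6 libraries and a C1qc to C1qb ratio between 0.802 and 1.04. The chains are adjacent on chromosome 4 (GRCm38, minus strand), with C1qb from 136880129 to 136886187, C1qc from 136889804 to 136893065 and C1qa from 136895917 to 136898803.

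**Figure D3:**
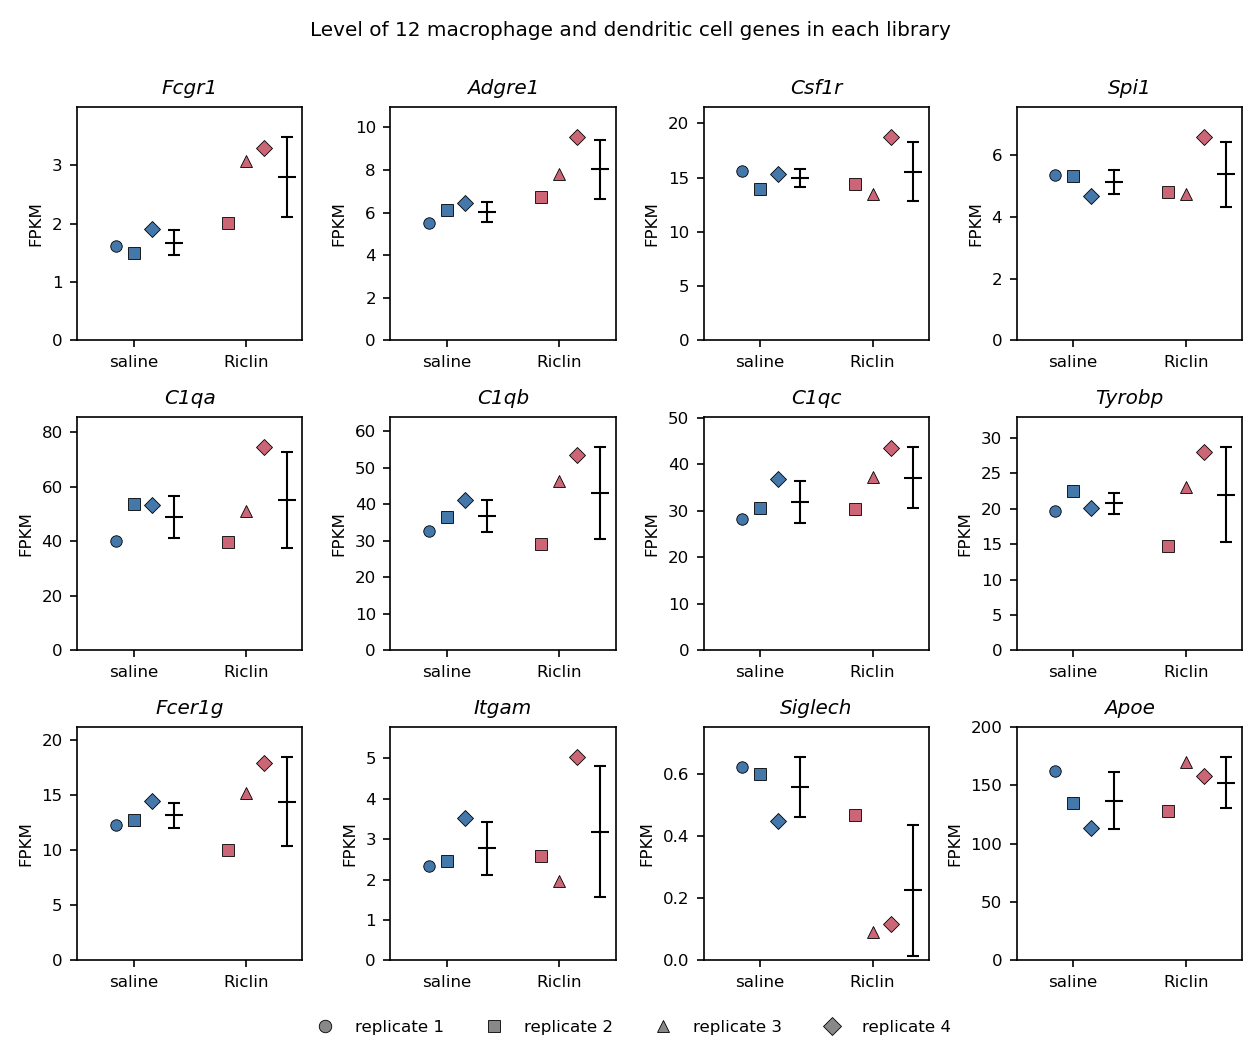
FPKM of 12 members in each library (points, shaped by replicate number; blue saline, red Riclin), with the mean and SD of each group (bars, n = 3). Fcgr1 and Adgre1 show no overlap between the groups, Riclin replicate 4 is highest in 10 of the 12, and Siglech is lowest in Riclin replicates 3 and 4.

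Among the other Fc receptors and signalling adaptors, which pass activating signals from immunoglobulin and lectin-like receptors through tyrosine motifs, no gene had an unadjusted p under 0.05 and the groups overlapped. Tyrobp, the adaptor DAP12, measured 19.7, 22.5 and 20.1 FPKM in saline and 14.8, 23.1 and 28.0 FPKM in Riclin. Fcer1g, the common gamma chain with which the Fcgr1 product assembles, measured 12.3, 12.7 and 14.5 FPKM in saline and 9.99, 15.3 and 17.9 FPKM in Riclin. In both adaptors the saline libraries lay inside the range of the Riclin ones. Their log2 fold changes were 0.036 (SE 0.211) and 0.086 (SE 0.195), and the Fcer1g to Tyrobp ratio averaged 0.637 ± 0.0773 in saline against 0.659 ± 0.0177 in Riclin (SD, n = 3 each). Trem2, a lipid-sensing receptor that signals through Tyrobp, measured 3.03, 1.14 and 3.11 FPKM in saline and 3.37, 1.85 and 3.42 FPKM in Riclin. One library of each group was low, at 47 reads in saline replicate 2 and 85 in Riclin replicate 3. Fcgr3, an activating receptor of lower affinity that shares sequence with the inhibitory Fcgr2b, had a log2 fold change of -0.064 (SE 0.212), and Cd300a, an inhibitory receptor for phospholipids, one of -0.033 (SE 0.162).

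Scavenger and uptake receptors, which mark resident tissue macrophages, lay on both sides of 0. Mrc1, the mannose receptor, measured 7.99, 5.86 and 8.54 FPKM in saline and 6.81, 6.45 and 8.25 FPKM in Riclin. Cd163, the haemoglobin scavenger receptor, measured 2.11, 1.20 and 2.32 FPKM in saline and 0.857, 1.78 and 2.75 FPKM in Riclin. In both genes replicate 4 was the highest library of each group, and the groups overlapped. Timd4, a phosphatidylserine receptor of long-lived resident macrophages, measured 2.31, 1.02 and 2.01 FPKM in saline and 0.999, 1.33 and 1.36 FPKM in Riclin, the lowest log2 fold change of the tested members (-0.29, SE 0.191, limma unadjusted p = 0.168). Saline replicate 2 lay among the Riclin libraries, and without it the log2 fold change was -0.51 with an unadjusted p of 0.00695 (limma adjusted p = 0.468). Cd209a, a lectin of monocyte-derived dendritic cells and macrophages, measured 1.91, 0.861 and 1.05 FPKM in saline and 1.72, 1.35 and 1.60 FPKM in Riclin. Without saline replicate 1, its highest library, the log2 fold change of 0.19 was 0.38 (limma adjusted p = 0.665). Folr2, a folate receptor of resident macrophages, had means of 6.54 ± 1.55 and 6.76 ± 1.62 FPKM (SD, n = 3 each), and shares 975 exon bases with the antisense gene Gm10602.

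Lyve1 marks a set of vessel-associated macrophages and also lymphatic endothelium. Its levels were 6.30, 5.88 and 6.96 FPKM in saline and 5.44, 5.78 and 6.41 FPKM in Riclin, and it varied less in Riclin than any other tested member (a coefficient of variation of 8.36%). The log2 fold change was -0.10 (SE 0.104). Of lymphatic markers, the transcription factor Prox1 ran from 0.219 to 0.387 FPKM and the growth factor receptor Flt4 from 1.01 to 1.57 FPKM in the 6 libraries. Pdpn measured 4.78, 5.45 and 3.52 FPKM in saline and 5.74, 6.10 and 8.34 FPKM in Riclin (log2 fold change 0.47, limma adjusted p = 0.791). Ccl21a had a log2 fold change of -0.33 (limma adjusted p = 0.864). Of 9 lymphatic and blood endothelial markers tested, 7 lay above 0 and 2 below. The part of such cells in the Lyve1 level was not tested. The scavenger receptors Msr1 and Marco stayed below 1 FPKM in every library and were not tested. Msr1 ran from 0.277 to 0.679 FPKM. Marco measured 0.561, 0.361 and 0.151 FPKM in saline and 0.112, 0.649 and 0.164 FPKM in Riclin, on 8 to 50 reads.

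Genes of the lysosome, microbial killing and lipid transport also overlapped between the groups. Cd68, a lysosomal glycoprotein, measured 8.79, 11.3 and 8.21 FPKM in saline and 7.64, 8.99 and 11.4 FPKM in Riclin, with means of 9.44 ± 1.66 and 9.33 ± 1.89 FPKM (SD, n = 3 each). Mpeg1, the pore-forming perforin-2, measured 12.9, 5.78 and 9.59 FPKM in saline and 10.2, 13.4 and 11.7 FPKM in Riclin. Its log2 fold change of 0.35 (SE 0.246) was 0.067 without saline replicate 2, the lowest library. Ctss, a protease that processes antigen, measured 23.2, 21.2 and 34.2 FPKM in saline and 24.6, 33.5 and 33.6 FPKM in Riclin, with saline replicate 4 highest. Cybb, the catalytic subunit of the phagocyte NADPH oxidase, measured 3.17, 2.18 and 3.92 FPKM in saline and 3.21, 2.89 and 4.85 FPKM in Riclin. Laptm5, a lysosomal membrane protein of leukocytes in general, had a lower mean in Riclin (12.9 ± 2.43 against 14.6 ± 3.63 FPKM, SD, n = 3 each), and its log2 fold change of -0.16 (SE 0.202) did not pass.

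Apoe, the lipid carrier that macrophages, hepatocytes and glia all secrete, had the highest FPKM of the members. It measured 162, 135 and 114 FPKM in saline and 128, 170 and 158 FPKM in Riclin. The groups overlapped (log2 fold change 0.16, SE 0.177, limma adjusted p = 0.917). Alb, the hepatocyte transcript for albumin, measured 143, 21.0 and 2.58 FPKM in saline and 3.45, 101 and 53.4 FPKM in Riclin. Both genes had saline replicate 1 and Riclin replicates 3 and 4 as the upper 3 libraries and saline replicate 4 as the lowest. The 8 hepatocyte markers summed to 892 to 1345 FPKM in saline and to 1045 to 1687 FPKM in Riclin, none of them at 0 in all libraries. Most of each sum came from Apoa1, at 1071, 1078 and 821 FPKM in saline and 980, 1447 and 1365 FPKM in Riclin. Apoa1 differed less between libraries than Alb, and so did the sums. By library the sums were 1345, 1149 and 892 FPKM in saline and 1045, 1687 and 1511 FPKM in Riclin. Their upper 3 libraries and their lowest library were those of Alb. The part of hepatocytes in the Apoe level was not tested.

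Integrins and chemokine receptors, which place monocytes and macrophages in tissue, overlapped as well. Itgam, the CD11b chain shared with neutrophils, measured 2.34, 2.46 and 3.52 FPKM in saline and 2.57, 1.96 and 5.02 FPKM in Riclin. Its log2 fold change of 0.095 (SE 0.258) was -0.20 without Riclin replicate 4. Itgam shares 3450 exon bases on the same strand with the protein-coding gene model Gm49368, to which some of its reads could have been assigned. Itgax, the CD11c chain of dendritic cells and some macrophages, measured 0.428, 0.731 and 1.05 FPKM in saline and 0.862, 0.432 and 1.79 FPKM in Riclin, and was not tested because only 2 libraries reached 1 FPKM. Cx3cr1, the fractalkine receptor of resident and patrolling cells, shares 78 exon bases with the antisense gene Gm33858. It had means of 4.44 ± 1.01 and 4.34 ± 0.438 FPKM, and Ccr2, which brings monocytes out of blood, 1.78 ± 0.415 and 1.68 ± 0.452 FPKM (SD, n = 3 each).

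The 5 dendritic cell genes had low levels, with a summed FPKM of 1.44 to 2.68 in the 6 libraries. Flt3 measured 0.264, 0.134 and 0.198 FPKM in saline and 0.172, 0.116 and 0.156 FPKM in Riclin. Xcr1, a chemokine receptor of cross-presenting dendritic cells, measured 0.225, 0.0748 and 0.298 FPKM in saline and 0.241, 0.202 and 0.118 FPKM in Riclin. Clec9a, the receptor for dead-cell actin on the same cells, ran from 0.118 to 0.266 FPKM, and it shares 184 exon bases with its neighbour Clec1b. These 3 genes had 12 to 64 reads a library and overlapping groups, and with no filter their unadjusted p was 0.237 for Flt3, 0.886 for Xcr1 and 0.528 for Clec9a (limma). Batf3, their transcription factor, was tested on 16 to 53 reads (log2 fold change -0.030, SE 0.237). Siglech measured 0.624, 0.601 and 0.448 FPKM in saline, and 0.469, 0.0912 and 0.117 FPKM in Riclin. Riclin replicates 3 and 4, with 14 and 17 reads, lay under all saline libraries, which had 93, 83 and 53 reads, whereas Riclin replicate 2, with 67 reads, lay among them. Siglech was under the level for testing, and with no filter its unadjusted p was 0.0321 (limma adjusted p = 0.892).

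Riclin replicate 4 stood apart from the other libraries across these genes. It was the highest of the 6 libraries in 20 of the 30 tested members (66.7%) and the lowest in none, whereas it was the highest for 12.9% of all genes tested. It was highest in 6 of 6 Fc receptor and adaptor genes, 3 of 3 C1q chains and 5 of 5 pan-macrophage genes. In the other roles it was highest in 2 of 6 lysosome, killing and lipid genes, 2 of 4 integrins and chemokine receptors, 2 of 8 scavenger receptors and 1 of 5 dendritic cell genes. The members were 1.33-fold above the mean of the other 5 libraries in the median, against 0.986-fold over all genes. Riclin replicate 2 was the lowest library in 10 of the 30 (33.3%, against 16.4% of all genes) and saline replicate 2 in 9 of the 30, against 31.7% of all genes. Without Riclin replicate 4, 10 of 30 members lay above 0 and the median log2 fold change was -0.095, while that of all genes was 0.054. As a share of all reads, the members made up 0.0938, 0.0811 and 0.0876% in saline and 0.0800, 0.0978 and 0.109% in Riclin, with a 95% Wilson interval of 0.108 to 0.110% for Riclin replicate 4 that covers counting error only. Without Apoe the shares were 0.0542, 0.0483 and 0.0598% in saline and 0.0488, 0.0562 and 0.0709% in Riclin.

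**Figure D4:**
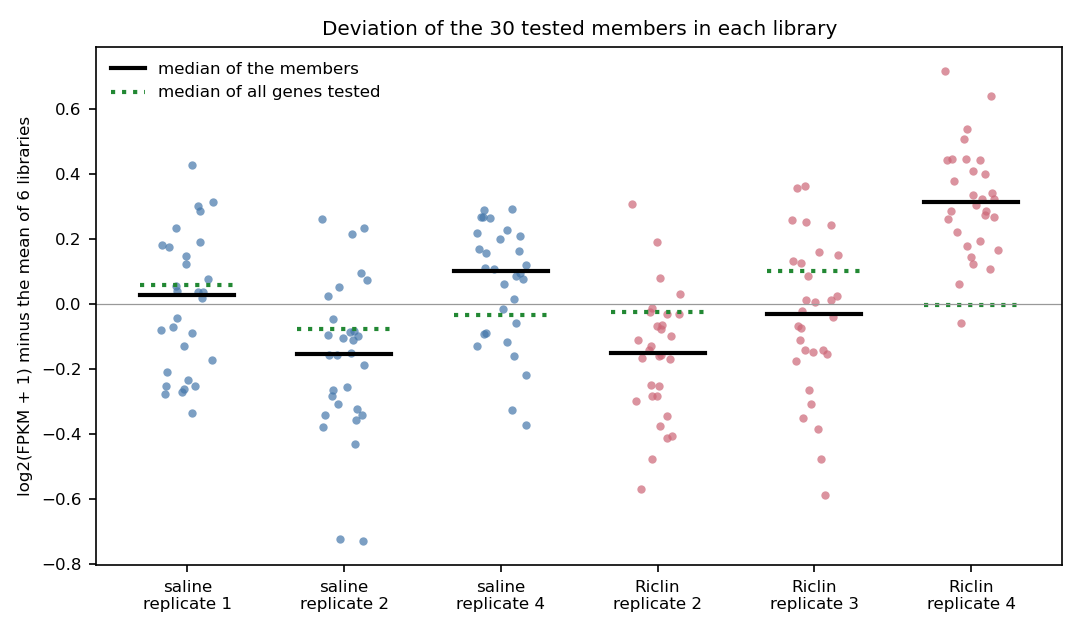
Deviation of each of the 30 tested members from its mean over the 6 libraries, on the log2(FPKM + 1) scale, with 1 point a gene (scattered sideways for legibility), the median of the members (black) and that of all genes tested (green, dotted). Riclin replicate 4 has a member median of 0.31 where that of all genes is -0.0050, and the other 5 libraries have member medians between -0.16 and 0.10.

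Some markers of other myeloid cells were also high in that library. Of eosinophil genes, Prg2, a granule protein, measured 4.11 FPKM in Riclin replicate 4 and 0.177 to 0.356 FPKM in the other 5 libraries, and Ear2, an eosinophil ribonuclease, 9.26 FPKM against 0.139 to 1.90. The 14 neutrophil markers summed to 12.5 to 22.3 FPKM in saline and to 28.0, 17.1 and 48.3 FPKM in Riclin, and 5 of the 14 were highest in replicate 4, where Ly6g had 1 read and in the other 5 libraries none. Of the 48.3 FPKM, 31.9 came from Retnlg, a secreted neutrophil protein. Without it the sums were 8.53, 12.4 and 10.0 FPKM in saline and 17.6, 14.0 and 16.4 FPKM in Riclin. Of 6 neutrophil markers tested, 5 lay above 0 and 1 below, and 0 passed the adjusted threshold. The smallest p values were those of Cd177 (log2 fold change 1.05, limma adjusted p = 0.424) and S100a8 (0.85, limma adjusted p = 0.682). In both genes every Riclin library lay above every saline one. The 11 mast cell markers summed to 101 FPKM in Riclin replicate 4 against 58.1 to 77.9 elsewhere, with 4 of the 11 highest and 2 lowest there. Without the proteases Mcpt1 and Mcpt2 that sum was 44.3 FPKM, inside the range of 41.0 to 50.2 FPKM of the other libraries. MHC class II genes summed to 402 FPKM there against 198 to 367. T and NK cell markers summed to 7.79 to 35.9 FPKM in saline and 6.45 to 7.42 FPKM in Riclin, and B and plasma cell markers to 25.4 to 39.7 FPKM in saline and 10.0 to 12.4 FPKM in Riclin. The part of these cells in the member levels was not tested.

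The spread within the groups was wider for these genes than for the median gene. The median coefficient of variation of the 30 tested members was 18.3% in saline and 23.7% in Riclin, against 12.5% and 11.1% over all genes tested. In 20 of the 30 (66.7%) the coefficient was larger in Riclin, compared with 44.2% of all genes. Without Riclin replicate 4 the median in Riclin was 19.4%, and 13 of the 30 (43.3%) were larger there, compared with 39.8% of all genes. Cd300a varied least in saline (4.21%), Trem2 most in saline (46.0%) and Batf3 most in Riclin (63.8%).

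Other macrophage and monocyte genes also gave no call, but Riclin replicate 4 was highest in fewer of them. It was highest in 16 of 54, still a larger share than the 12.9% of all genes tested. It was lowest in 4, where the share of all genes tested was 16.2%. Saline replicate 4 was highest in 19, against 11.1% of all genes tested. The summed level in Riclin replicate 4, 1497 FPKM, lay inside the range of 1265 to 1557 FPKM of the other libraries. Of the 54 listed, 48 were tested, 24 lay above 0 and 24 below, 0 passed the adjusted threshold and 2 had an unadjusted p under 0.05, both higher in Riclin, with a median log2 fold change of 0.0022. Ms4a6c, a membrane protein of monocytes and macrophages from a family of related genes that may share reads, measured 3.23, 2.84 and 2.01 FPKM in saline and 3.79, 5.05 and 5.17 FPKM in Riclin (log2 fold change 0.62, SE 0.160, limma unadjusted p = 0.00503 and adjusted p = 0.691). Tlr4, the receptor for bacterial lipopolysaccharide, measured 4.57, 3.66 and 4.18 FPKM in saline and 5.21, 5.05 and 5.11 FPKM in Riclin (log2 fold change 0.26, SE 0.101, limma adjusted p = 0.806). In both genes the groups did not overlap. The leukocyte phosphatase Ptprc had means of 4.33 ± 2.29 and 2.74 ± 0.268 FPKM, the lipopolysaccharide co-receptor Cd14 5.72 ± 0.307 and 5.31 ± 0.972 FPKM, and the lysozyme Lyz2, whose close copy Lyz1 may share reads, 164 ± 27.8 and 129 ± 28.8 FPKM (SD, n = 3 each), all overlapping.

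Of 24 other dendritic cell genes, 10 were tested, and 1 had an unadjusted p under 0.05. It was Bst2, which plasmacytoid cells carry, which interferon induces in many cell types and which the interferon list above also holds. Bst2 measured 49.4, 58.2 and 53.3 FPKM in saline and 119, 196 and 132 FPKM in Riclin (log2 fold change 1.43, limma adjusted p = 0.289). Irf8, a transcription factor of monocytes and dendritic cells, had means of 5.36 ± 1.45 and 4.56 ± 0.439 FPKM (SD, n = 3 each). The 6 tested genes of antigen presentation by MHC class II all lay below 0 (median log2 fold change -0.25) and none had an unadjusted p under 0.05. B cells also carry MHC class II, and 0 of the 4 tested B and plasma cell markers lay above 0 (median log2 fold change -1.26). Their part in the MHC class II values was not tested. Cd74, their invariant chain, measured 165, 126 and 209 FPKM in saline and 112, 128 and 190 FPKM in Riclin.

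The ligands of the member receptors were also measured. Of 26 listed growth factors, chemokines and partners, 18 were tested, 12 lay above 0, and 1 in each direction had an unadjusted p under 0.05. Csf1 had means of 4.52 ± 0.303 and 4.45 ± 0.418 FPKM, and Il34, the second ligand of Csf1r, 1.63 ± 0.222 and 1.69 ± 0.0393 FPKM (SD, n = 3 each). Their 95% intervals of the log2 fold change were -0.26 to 0.22 and -0.21 to 0.28. Flt3l, the ligand of Flt3, had means of 1.13 ± 0.195 and 1.20 ± 0.480 FPKM. C1ra, the protease that C1q carries, had means of 10.4 ± 3.16 and 14.7 ± 2.08 FPKM (limma adjusted p = 0.820), and the groups overlapped. Ccl5, a chemokine made largely by T and NK cells, measured 7.88, 2.97 and 14.9 FPKM in saline and 2.62, 2.25 and 1.58 FPKM in Riclin (limma adjusted p = 0.765), with every Riclin library below every saline one.

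The libraries held between 30884067 and 40050267 reads. Gastric identity was plain in all 6, with Atp4a, the proton pump of parietal cells, between 1273 and 2245 FPKM. The share of reads from pancreatic acinar genes was between 6.41 and 18.6% in saline and between 2.60 and 13.9% in Riclin, with Riclin replicate 3 lowest, and such a share scales every other FPKM value in its library. With these genes removed and the libraries rescaled, the log2 fold change was 0.45 for Fcgr1 and 0.29 for Adgre1. The unadjusted limma p of Adgre1 was then 0.0977 and its adjusted p 0.671.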

How the data were processed

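RNA from stomach was extracted with TRIzol and prepared for sequencing by VAHTS Universal V6, per the labels' protocols. The authors deposited gene-level FPKM values, and build mm10 and Bowtie2 appear in the submitters' processing notes. The sources used here do not give the counting tool, the annotation or whether strand was used. Whole reads were recovered from the FPKM values for 23495 of 23550 genes (relative tolerance 1e-09) and used for depth, which was 30884067 to 40050267 reads a library. All columns were mapped to samples.

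Genes that reached 1 FPKM in 3 or more libraries (11738) were tested on log2(deposited FPKM + 1) with limma 3.58.1 (R 4.3.3, trended prior), adjusted by Benjamini-Hochberg over these genes. A fold change on this scale understates that of low genes. Ratios were tested by exact two-sided permutation. Figures used Python 3.11.15 and matplotlib 3.10.9. The code was tested on simulated data. Positions came from GENCODE on GRCm38 and promoters from RefSeq on GRCm38.p6.

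The members and lists were chosen with earlier results of these data known. Values in every library were planned for the 10 members with the smallest unadjusted p and for a fixed set of defining members. Others were given by range or mean, except Marco and Siglech, shown in full after their values were seen. Up to 4 genes of each other list were to be named by smallest unadjusted p, beside a fixed set. Flt4, Prg2, Ear2, Epx, Ly6g, Retnlg, Mcpt1 and Mcpt2 were named after their values were seen. Alternatives changed the pseudocount, filter, scaling, prior, test and the libraries used. The spread without Riclin replicate 4 and the marker sums without Retnlg, or without Mcpt1 and Mcpt2, were chosen after seeing the data.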

Additional observations from a re-analysis of the deposited data

How the results depend on the processing

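Under the 16 alternatives, 0 of 469 member values passed the adjusted threshold (smallest limma adjusted p 0.468), and 409 kept their direction. Directions held throughout for 12 members, 9 higher and 3 lower (Laptm5, Lyve1 and Timd4). Fcgr1 had an unadjusted p under 0.05 in 14 of 15 alternatives that tested it (limma adjusted p 0.538 to 0.964), and Adgre1 in 7 of 16 (limma adjusted p 0.636 to 0.964). Members higher at an unadjusted p under 0.05 numbered 1 in place of 2 with a filter at FPKM 5, median-of-ratios scaling, upper-quartile scaling, acinar genes removed, or saline replicate 1 and Riclin replicate 3 left out together. The filter at FPKM 5 left Fcgr1 out of the test, as it stayed under that level in every library. Leaving out each library in turn gave 1 to 3. The share of all genes higher by this rule was 4.07% in the main fit, and its values under the alternatives are not given here. Members lower numbered 1 in place of 0 with no filter, which admits Siglech, and 0 to 1 with each library left out, the 1 being Timd4 without saline replicate 2. Genes called over the whole table numbered 2 in place of 0 with a robust prior, and 0 to 1 with each library left out. The members' median log2 fold change ran from -0.095 to 0.16 with each library left out.

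Directions turned under other scalings only near 0. With median-of-ratios scaling the log2 fold change of Csf1r was -0.0060, of Tyrobp -0.013 and of Folr2 -0.0022. With acinar genes removed it was -0.027 for Csf1r, -0.035 for Tyrobp, -0.021 for Folr2 and -0.013 for Spi1. The share of all genes above 0 was 49.0% and 43.8% under these scalings.

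The groups share replicate numbers 2 and 4, but no label says that a number pairs samples, and same-numbered deviations correlated at 0.22 and 0.011. A replicate block gave 3 members higher and 0 genes called. With the replicate block, and equally with saline replicate 1 and Riclin replicate 3 left out together, the log2 fold change was 0.071 for Mrc1, 0.026 for Fcgr3, -0.014 for Fcer1g, -0.056 for Tyrobp, 0.29 for Lst1, 0.096 for Cx3cr1, 0.014 for Ccr2, 0.12 for Batf3 and 0.13 for Cd300a.

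With each library left out in turn, directions turned for 18 members. The log2 fold change ran from -0.029 to 0.27 for Aif1, -0.29 to 0.15 for Batf3, -0.0996 to 0.34 for C1qa, -0.17 to 0.068 for Ccr2, -0.32 to 0.19 for Cd163 and -0.18 to 0.13 for Cd300a. It ran from -0.16 to 0.11 for Cd68, -0.090 to 0.13 for Csf1r, -0.17 to 0.10 for Cx3cr1, -0.081 to 0.31 for Fcer1g, -0.23 to 0.16 for Fcgr3 and -0.13 to 0.20 for Folr2. It ran from -0.20 to 0.31 for Itgam, -0.39 to 0.26 for Lst1, -0.19 to 0.051 for Mrc1, -0.082 to 0.12 for Spi1, -0.097 to 0.42 for Trem2 and -0.16 to 0.28 for Tyrobp. For these turns the cause was not tested. With 3 libraries a group the median distance from estimate to bound of a 95% interval was 0.45 on the log2 scale, and the 7 members too low to test had at most 295 reads in any library.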
